A study of Mus musculus with 13 samples.

Results

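The effect of the CD8KO genotype label on gene expression was compared across all genes between natural killer cells resident in the liver (LrNK) and conventional ones (cNK). For each gene the change from wild-type (B6) to CD8KO libraries was taken within LrNK and within cNK, and the cNK change was subtracted from the LrNK change. This difference of 2 changes, the interaction, is on a log2 scale, so an interaction of -1 means that the CD8KO to B6 ratio in LrNK was 0.5 times that in cNK. All 13 RNA libraries of the series entered, and 19287 of 54532 gene identifiers had enough counts to be tested. The members were chosen by labels and not by measured values.

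The series compared sorted NK cells of wild-type mice and of mice labelled CD8KO, all labelled C57BL/6J and 8 to 10 weeks old, to ask how CD8+ T cells bear on LrNK maturation through CD70 and CD27. The LrNK libraries carry the cell type label Liver Lymphocytes and the cNK libraries the label splenocytes, so cell type and organ cannot be told apart in the interaction. There were 4 libraries of LrNK B6, 3 of LrNK CD8KO, 3 of cNK B6 and 3 of cNK CD8KO. The labels do not say which CD8 gene was altered, which mice gave each library, or whether mice were pooled, so p-values measure the spread between these samples, which may be technical.

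NK cells are innate lymphocytes that kill infected or transformed cells with perforin and granzymes and secrete interferon-gamma. Conventional NK cells circulate through blood and spleen, depend on the transcription factor Eomes and carry the integrin CD49b. Liver-resident cells stay in the sinusoids, carry CD49a and the death ligand TRAIL, and express little Eomes. CD27 is a TNF-family receptor of NK and T cells whose ligand is CD70, and the Ly49 (Klra) and NKG2 (Klrc, Klrd1) receptors read class I molecules on other cells.

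Total counts were 30578631 to 47655853 in LrNK libraries and 48600875 to 72716020 in cNK libraries. LrNK B6 libraries 2 and 4 differed far less than other LrNK pairs (chi-square per degree of freedom 3.04, against 196 to 283), and so did LrNK CD8KO libraries 2 and 3 (2.67). Each pair was summed and counted as 1 sample, which leaves 3, 2, 3 and 3 samples. The 3 LrNK libraries outside these pairs had fewer genes with a count, 13917 to 15797 against 19896 or more in all others. The biological coefficient of variation was 108% among LrNK samples and 9.89% among cNK samples. Defining markers followed the cell type labels: Itga1 (CD49a) was at 147 CPM or more (counts per 1000000, scaled by TMM) in every LrNK sample and at 18.8 or less in every cNK sample, while Eomes was at 10.3 CPM or less in LrNK and 625 or more in cNK. The X-inactivation transcript Xist was at 97 and 144 CPM in the LrNK CD8KO samples, at 0.243, 257 and 785 in cNK CD8KO, and at 1.89 or less in every B6 sample. The Y-linked Ddx3y was detected in all samples and was lowest in cNK CD8KO sample 3, at 3.01 CPM. The part that the sex of the mice has in any result was not tested.

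Cd8a (ENSMUSG00000053977), encoding the alpha chain of the CD8 coreceptor, which the genotype label names, did not go down in the libraries labelled CD8KO. In LrNK it was at 20.4, 21.4 and 20.5 CPM in B6 and at 42.6 and 47.1 CPM in CD8KO. The cNK levels were 0.555, 0.574 and 0.54 CPM in B6 and 86.1, 83.4 and 105 CPM in CD8KO. It was higher under the CD8KO label in both cell types, with no overlap between the groups, by 1.11 ± 0.13 (log2, SE) in LrNK and 7.36 ± 0.17 in cNK. The interaction was -6.25 ± 0.21 (edgeR quasi-likelihood test, adjusted p = 4.58e-07). The gene lies at chr6:71373427-71379173 on the plus strand of GRCm38. Counts over a whole gene cannot show whether its protein is made, and they check the label only if the altered part of the locus is known. The beta chain Cd8b1 stayed at 0.59 CPM or less in every sample, with no count in any LrNK B6 sample.

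Over all genes, 8 of 19287 (0.0415%) had an interaction with an adjusted p under 0.05 (edgeR quasi-likelihood test, Benjamini-Hochberg adjustment over all genes tested): 1 positive (0.00518%), Bach1, and 7 negative (0.0363%), Cd8a, Klra9, Cd3g, Klra5, Gzma, Htra3 and Klri2. At an unadjusted p under 0.05 there were 1628 genes (8.44%). Within LrNK, 104 genes were higher and 34 lower with CD8KO, 138 in all (0.716%), and within cNK only Cd8a passed in this fit (0.00518%), higher, with 136 genes at an unadjusted p under 0.05. The median absolute estimated change was 0.44 in LrNK and 0.13 in cNK, and the LrNK estimate was the larger in 15297 genes (79.3%). Estimates widen with the spread between samples, which was far larger in LrNK, so this does not show that genes changed more there. The median interaction over all genes was 0.07, and the median absolute interaction fell from 1.40 among genes with an average log2 CPM under 0 to 0.20 among those at 6 and over.

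The count of 8 rested strongly on single samples and on the tool. Without the summed LrNK B6 sample 2 it was 569 positive and 76 negative, and without the summed LrNK CD8KO sample 2 it was 98 and 155. DESeq2 called 208 and 129, and limma voom with 1 weight per group, which lets LrNK and cNK each keep their own spread, called 0 and 3. The LrNK calls of 104 and 34 rested on the shared spread as well: with the LrNK groups fitted alone edgeR called 0 and 0, with 615 of 16504 genes at an unadjusted p under 0.05, and voom called 3 and 3. With the cNK groups fitted alone, 83 genes were higher and 135 lower with CD8KO, where the joint fit, in which all groups share one estimate of the spread, called 1. By contrast the sign of each of the 8 genes was the same in all 20 alternatives, and Cd8a, Cd3g and Klra5 were called in every one. A pair of these alternatives keeps 1 or 2 LrNK B6 samples and 1 LrNK CD8KO sample, so their estimate of the spread comes mostly or only from cNK.

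**Figure D1:**
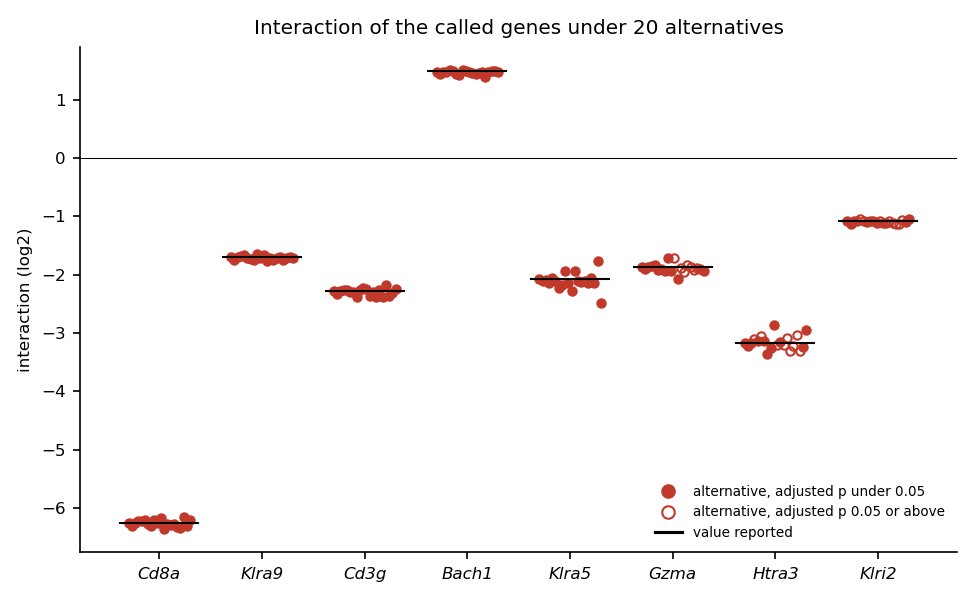
Interaction (log2) of the 8 called genes under 20 alternative analyses, filled where the adjusted p was under 0.05 and open where it was not, with the reported value as a bar. All 8 genes keep their sign, and open points appear mainly for Gzma, Htra3 and Klri2.

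**Figure D2:**
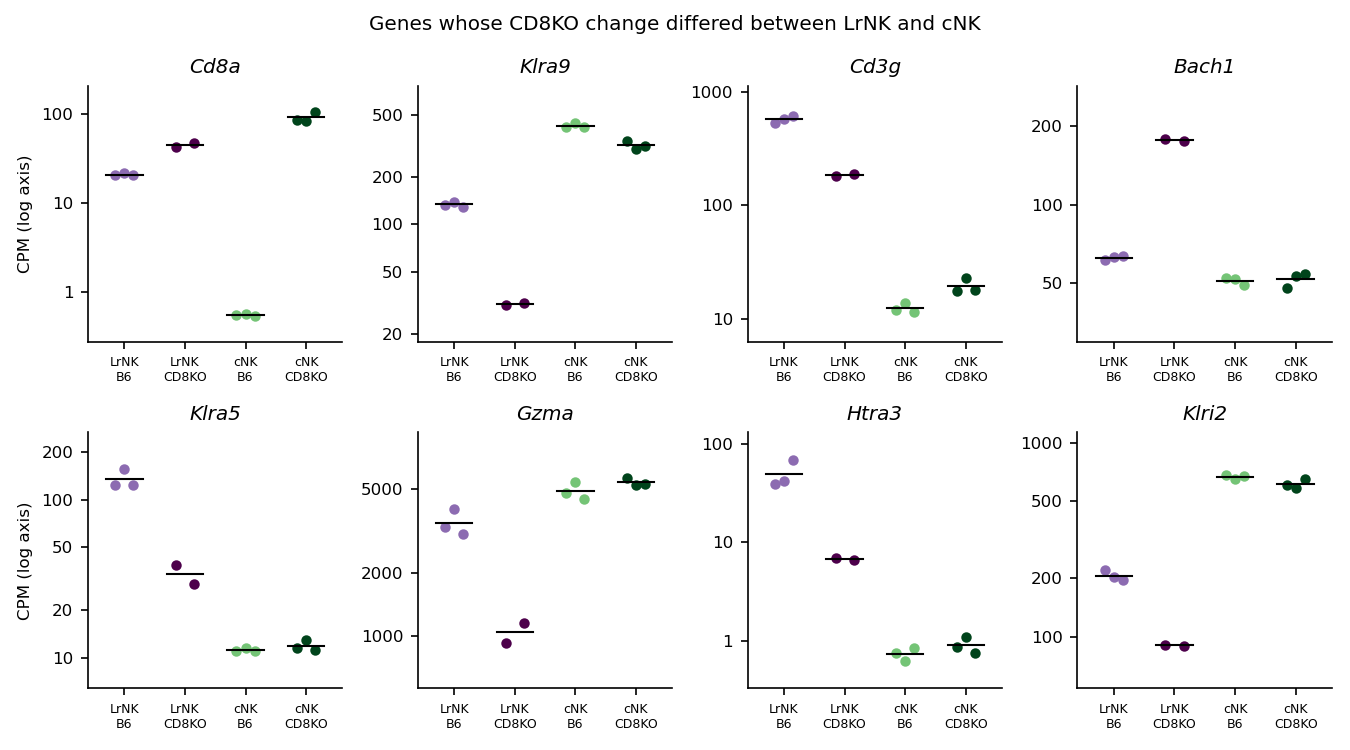
CPM (log axis) of the 8 genes with an interaction at an adjusted p under 0.05, in LrNK B6 (3 samples), LrNK CD8KO (2), cNK B6 (3) and cNK CD8KO (3). Points are samples and bars are group means. Except for Cd8a, the gap between B6 and CD8KO is wider in LrNK than in cNK on this axis.

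Cd3g, the gamma chain of the CD3 complex through which the T-cell receptor signals, was lower with CD8KO in LrNK and higher in cNK. Its level was 536, 576 and 619 CPM in LrNK B6 and 183 and 191 CPM in LrNK CD8KO. In cNK it was 11.9, 13.6 and 11.4 CPM in B6 and 17.6, 22.7 and 18 CPM in CD8KO. The groups did not overlap in either cell type, and the CD8KO samples were the lower ones in LrNK and the higher ones in cNK. It fell by 1.63 ± 0.15 in LrNK (log2, edgeR adjusted p = 0.00146), the cNK difference of 0.66 ± 0.13 did not pass (adjusted p = 0.598), and the interaction was -2.28 ± 0.19 (adjusted p = 0.00149). Of all genes tested, 159 (0.824%) were lower in LrNK and higher in cNK without overlap, and 164 (0.850%) were the reverse. The gene lies at chr9:44969572-44980431 on the minus strand.

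The T-cell part of these samples was read from other single markers, and from a list of T-cell markers that includes Cd3g and Cd8a. Trac, the constant part of the T-cell receptor alpha chain, was at 28.1 to 35.8 CPM in LrNK B6 and 39.5 and 44 CPM in LrNK CD8KO. Trac was thus higher in LrNK CD8KO without overlap, as for 10.6% of all genes. Cd3e was at 15 to 34.1 CPM in LrNK B6 and 37.6 and 30.1 CPM in LrNK CD8KO. Trbc2, a constant part of the T-cell receptor beta chain, was at 310, 422 and 311 CPM in LrNK B6 and 193 and 240 CPM in LrNK CD8KO. Trbc2 was thus lower in LrNK CD8KO without overlap, by a log2 change of -0.69 ± 0.17 that did not pass (edgeR adjusted p = 0.102), and its interaction was -0.70 ± 0.22 (adjusted p = 0.416). Of 16 T-cell markers tested, none was called positive and 2 were called negative, Cd8a and Cd3g, and their median interaction was -0.11. With single samples left out that median ran from -0.87 (without LrNK CD8KO sample 2) to -0.0019 (without LrNK B6 sample 3). The median change of the 16 markers from B6 to CD8KO was upward in both cell types, 0.39 in LrNK and 0.29 in cNK. Their summed level was 1600 to 2060 CPM in LrNK B6 and 1000 and 1360 CPM in LrNK CD8KO. In cNK the sum was 528 to 556 CPM in B6 and 660 to 676 CPM in CD8KO. This sum is not separate from the called genes. From B6 to CD8KO the group mean of Cd3g differed by -390 CPM in LrNK, and that of Cd8a by 91 CPM in cNK. The part of T cells in the Cd3g result was not tested. In bulk samples, fewer cells of a type and less RNA per cell cannot be told apart.

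A group of 3 receptor genes of the NK gene complex on chromosome 6 had a negative interaction: Klra9 (Ly49I), an inhibitory receptor for class I molecules; Klra5 (Ly49E), a Ly49 receptor; and Klri2, a lectin-like receptor. Klra9 was at 134, 140 and 129 CPM in LrNK B6 and at 30.5 and 31.6 CPM in LrNK CD8KO. The cNK levels were 420, 447 and 418 CPM in B6 and 339, 304 and 319 CPM in CD8KO. CD8KO samples were below B6 samples in both cell types, as for 0.581% of all genes, and as a ratio the gap was far wider in LrNK. The changes were -2.11 ± 0.11 in LrNK (log2, edgeR adjusted p = 3.67e-05) and -0.42 ± 0.09 in cNK (adjusted p = 0.938), with an interaction of -1.69 ± 0.14 (adjusted p = 0.00149). In CPM the differences were alike, -103 in LrNK and -108 in cNK, so the interaction is one of ratios.

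Klra5 was at 125, 156 and 124 CPM in LrNK B6 and at 38.9 and 29.5 CPM in LrNK CD8KO. In cNK it was at 11 to 11.6 CPM in B6 and 11.3 to 12.9 CPM in CD8KO, where the groups overlapped. The interaction was -2.08 ± 0.22 (edgeR adjusted p = 0.00639), almost all of it from the LrNK fall of 1.98 ± 0.17. Klri2 was at 220, 203 and 197 CPM in LrNK B6 and at 90.2 and 89.8 CPM in LrNK CD8KO, against 652 to 681 CPM in cNK B6 and 586 to 651 CPM in cNK CD8KO. The groups separated widely in LrNK, but in cNK only by the gap between 652 CPM in B6 and 651 CPM in CD8KO. The change was -1.20 ± 0.11 in LrNK and -0.12 ± 0.09 in cNK (edgeR unadjusted p = 0.221 in cNK). The interaction was -1.08 ± 0.14 (edgeR adjusted p = 0.0321) and was called in 10 of 20 alternatives. Without LrNK CD8KO sample 1, or without any 1 of the 6 cNK samples, Klri2, Gzma and Htra3 were no longer called. The 3 genes lie on the minus strand at chr6:130178675-130193112 (Klra9), chr6:129898996-129917650 (Klra5) and chr6:129729041-129740484 (Klri2). Reads of near-identical Klra genes may have been split between them, which was not tested.

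Because Klra5 and Klra9 both fell in LrNK, the 250 bases before the start of each are shown (RefSeq, GRCm38.p6, 5′ to 3′ on the minus strand). They stand at chr6:129913225-129913474 (Klra5) and chr6:130193113-130193362 (Klra9), and capitals mark the runs of at least 12 bases that are identical between them in an alignment.
Klra5: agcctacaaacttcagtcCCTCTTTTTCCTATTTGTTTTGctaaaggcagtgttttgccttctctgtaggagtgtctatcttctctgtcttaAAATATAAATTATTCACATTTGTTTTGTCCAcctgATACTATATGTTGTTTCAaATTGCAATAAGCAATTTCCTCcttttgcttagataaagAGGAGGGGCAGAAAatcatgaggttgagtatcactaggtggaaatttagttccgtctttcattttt
Klra9: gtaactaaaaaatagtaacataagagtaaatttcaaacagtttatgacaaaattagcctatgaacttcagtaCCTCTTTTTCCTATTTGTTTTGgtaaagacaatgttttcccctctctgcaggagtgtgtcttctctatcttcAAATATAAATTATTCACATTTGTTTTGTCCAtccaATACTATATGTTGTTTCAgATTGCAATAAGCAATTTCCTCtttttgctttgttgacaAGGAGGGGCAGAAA
Over 198 aligned columns, 174 were identical (87.9%), with 2 gap columns and a longest identical run of 31 bases. No window of another Ly49 gene was aligned, so whether Ly49 genes that did not fall share this stretch was not tested. The shared stretch sits nearer the start in Klra9 than in Klra5, whose RefSeq start is 4426 bases from its GENCODE gene start. Neither window held the RUNX letters TGTGGT or the T-box letters GGTGTGA on either strand, which 14% and 3.33% of all 32851 windows of this length held. Klri2 had no entry.

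The Ly49 genes as a group had no common direction. Of 11 tested, 2 were called negative, 5 were above 0 and 6 below, and the median interaction was -0.08, against 0.07 over all genes; with limma voom the median was 0.11, and it was -0.18 without LrNK CD8KO sample 1 and 0.03 without cNK B6 sample 1. Klra3 (Ly49C) was at 12 to 18.5 CPM in LrNK B6 and 7.15 and 7.56 CPM in LrNK CD8KO, a fall of 1.07 ± 0.17 (log2, edgeR adjusted p = 0.0282) whose interaction did not pass (adjusted p = 0.23). Klra8 (Ly49H), the activating receptor for mouse cytomegalovirus m157, named here after its values were seen, differed by nearly the same ratio in both cell types. It was at 6.37 to 7.4 CPM in LrNK B6, 4.36 and 3.49 CPM in LrNK CD8KO, 795 to 859 CPM in cNK B6 and 431 to 552 CPM in cNK CD8KO. Its interaction was -0.08 ± 0.20, while its average effect over both cell types, -0.75 ± 0.10, passed (edgeR adjusted p = 0.0315).

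Klrd1 (CD94), which pairs with NKG2 chains, was at 615, 661 and 670 CPM in LrNK B6 and at 355 and 329 CPM in LrNK CD8KO, and at 643 to 726 CPM in all cNK samples. It fell in LrNK (-0.92 ± 0.11, edgeR adjusted p = 0.00761), and its interaction of -0.86 ± 0.14 did not pass (adjusted p = 0.108). Its inhibitory partner Klrc1 (NKG2A) had a similar interaction, -0.78 ± 0.17 (adjusted p = 0.229). Styk1, a kinase-like membrane protein gene also named after its values were seen, had an interaction of -1.13 ± 0.17 (adjusted p = 0.0779). Activating and costimulatory receptors lay mostly on the negative side: 4 of 23 were above 0 and 19 below, with a median of -0.38. At an unadjusted edgeR p under 0.05 there were 10, and none was called by voom or the main edgeR fit. DESeq2 called 4, and edgeR without LrNK B6 sample 2 called 3, all negative. Among them Cd7, an immunoglobulin-family costimulator, was at 1430 to 1720 CPM in LrNK B6, 766 and 996 CPM in LrNK CD8KO, 303 to 315 CPM in cNK B6 and 336 to 382 CPM in cNK CD8KO. Its groups separated in both cell types in opposite directions, and its interaction was -0.997 ± 0.191 (adjusted p = 0.174). Cd160, a receptor for class I and HVEM, gave -0.70 ± 0.15 (adjusted p = 0.223). The summed level of this list was 8130 to 8620 CPM in LrNK B6, 5930 and 6020 CPM in LrNK CD8KO, and 8550 to 9050 CPM in all cNK samples.

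Gzma, the granule protease granzyme A, was at 3280, 4030 and 3040 CPM in LrNK B6 and at 929 and 1160 CPM in LrNK CD8KO. In cNK it was at 4800, 5410 and 4480 CPM in B6 and 5640, 5190 and 5300 CPM in CD8KO. Every LrNK CD8KO sample was below every LrNK B6 sample, as for 6.19% of all genes, and the cNK groups overlapped. It fell by 1.73 ± 0.17 in LrNK (log2, edgeR adjusted p = 0.0029), and the interaction was -1.86 ± 0.22 (adjusted p = 0.0179), called in 12 of 20 alternatives. The 250 bases before its start (chr13:113100982-113101231, minus strand, RefSeq GRCm38.p6) are shown because RUNX factors are known regulators of cytotoxic genes. Capitals mark the only match to the RUNX letters, ACCACA on the reverse strand, 50 to 45 bases before the start.
Gzma: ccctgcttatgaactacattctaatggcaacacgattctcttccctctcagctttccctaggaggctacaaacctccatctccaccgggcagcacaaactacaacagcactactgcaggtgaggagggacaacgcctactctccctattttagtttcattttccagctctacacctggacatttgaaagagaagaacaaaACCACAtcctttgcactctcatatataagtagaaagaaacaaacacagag
A match of these letters is a description and not a site. Gzma itself spans chr13:113093825-113100981.

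Gzmb (granzyme B) also fell in LrNK, from 2850, 3830 and 2790 CPM in B6 to 976 and 1390 CPM in CD8KO (-1.42 ± 0.20, edgeR adjusted p = 0.0198). It was at 617, 711 and 564 CPM in cNK B6 and at 543, 481 and 556 CPM in cNK CD8KO. Gzmb was thus lower with CD8KO without overlap in both cell types, like 0.581% of all genes. Its interaction of -1.16 ± 0.26 did not pass (adjusted p = 0.23). Prf1 (perforin) gave -0.61 ± 0.21 (adjusted p = 0.461), the TRAIL gene Tnfsf10 -0.54 ± 0.27 (adjusted p = 0.641) and the interferon-gamma gene Ifng -0.20 ± 0.62 (adjusted p of 1). Of 20 granule and death ligand genes tested, 1 was called negative, 5 were above 0 and 15 below, and the median was -0.37. That median was -0.03 without LrNK CD8KO sample 1 and -0.60 without LrNK CD8KO sample 2. Their summed level was 10900 to 13900 CPM in LrNK B6, 5960 and 7260 CPM in LrNK CD8KO, and 10600 to 12100 CPM in all cNK samples. Gzma and Gzmb weigh heavily in this sum: their LrNK group means differed by -2410 and -1970 CPM from B6 to CD8KO.

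Htra3, a secreted serine protease gene and a member of the liver-resident list, had the most negative interaction after Cd8a among called genes. It was at 39, 41.7 and 68.7 CPM in LrNK B6, 7 and 6.6 CPM in LrNK CD8KO, and 1.09 CPM or less in every cNK sample. Its LrNK groups were far apart and its cNK groups overlapped near the floor. The interaction was -3.16 ± 0.40 (edgeR adjusted p = 0.031), called in 11 of 20 alternatives. The gene lies at chr5:35652023-35679782 on the minus strand. Itga1, the CD49a integrin that defines LrNK, was at 368, 239 and 209 CPM in LrNK B6 and 152 and 147 CPM in LrNK CD8KO, against 9.63 to 11.2 CPM in cNK B6 and 16.8 to 18.8 CPM in cNK CD8KO. Its groups separated in opposite directions, like those of Cd3g, and its interaction of -1.62 ± 0.28 did not pass (adjusted p = 0.14).

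Of 29 liver-resident signature genes, 2 were called negative, Htra3 and Cd3g; 9 were above 0 and 20 below, with a median of -0.27. That median was -0.50 without LrNK CD8KO sample 2 and -0.15 without LrNK B6 sample 2, where 5 members were called negative. Of 25 conventional signature genes, 1 was called negative, Klra9. In this list 17 were above 0 and 8 below, with a median of 0.68. At an unadjusted edgeR p under 0.05, 10 were positive and 2 negative, and DESeq2 called 4 positive and 2 negative. Itgam (CD11b), which rises as conventional NK cells mature, was at 25, 15.1 and 35.5 CPM in LrNK B6 and 85.8 and 55.4 CPM in LrNK CD8KO, and its interaction was 1.51 ± 0.39 (edgeR adjusted p = 0.294). Eomes was at 0.492, 5.03 and 1.66 CPM in LrNK B6 and 6.18 and 10.3 CPM in LrNK CD8KO, with an interaction of 1.67 ± 0.78 (adjusted p = 0.616). The 2 LrNK CD8KO samples were the highest of the LrNK samples for both genes, at levels far below those of cNK. Neutrophil and monocyte markers summed to 2760, 1120 and 4370 CPM in LrNK B6 and 9070 and 2950 CPM in LrNK CD8KO. The part of such cells in the Itgam level was not tested. Without LrNK CD8KO sample 2 the conventional list's median was 0.32, and without LrNK B6 sample 2 it was 0.94. Tbx21, which encodes T-bet, had an interaction of -0.07 ± 0.50 and the maturation marker Klrg1 one of 0.08 ± 0.91, with overlapping groups in both cell types. Of 19 terminal maturation genes none was called by edgeR or voom (9 at an unadjusted p under 0.05, and 4 positive and 1 negative with DESeq2), and their median was 0.14. It was 0.06 without cNK B6 sample 2 and 0.49 without LrNK B6 sample 2, where 2 members were called positive.

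**Figure D3:**
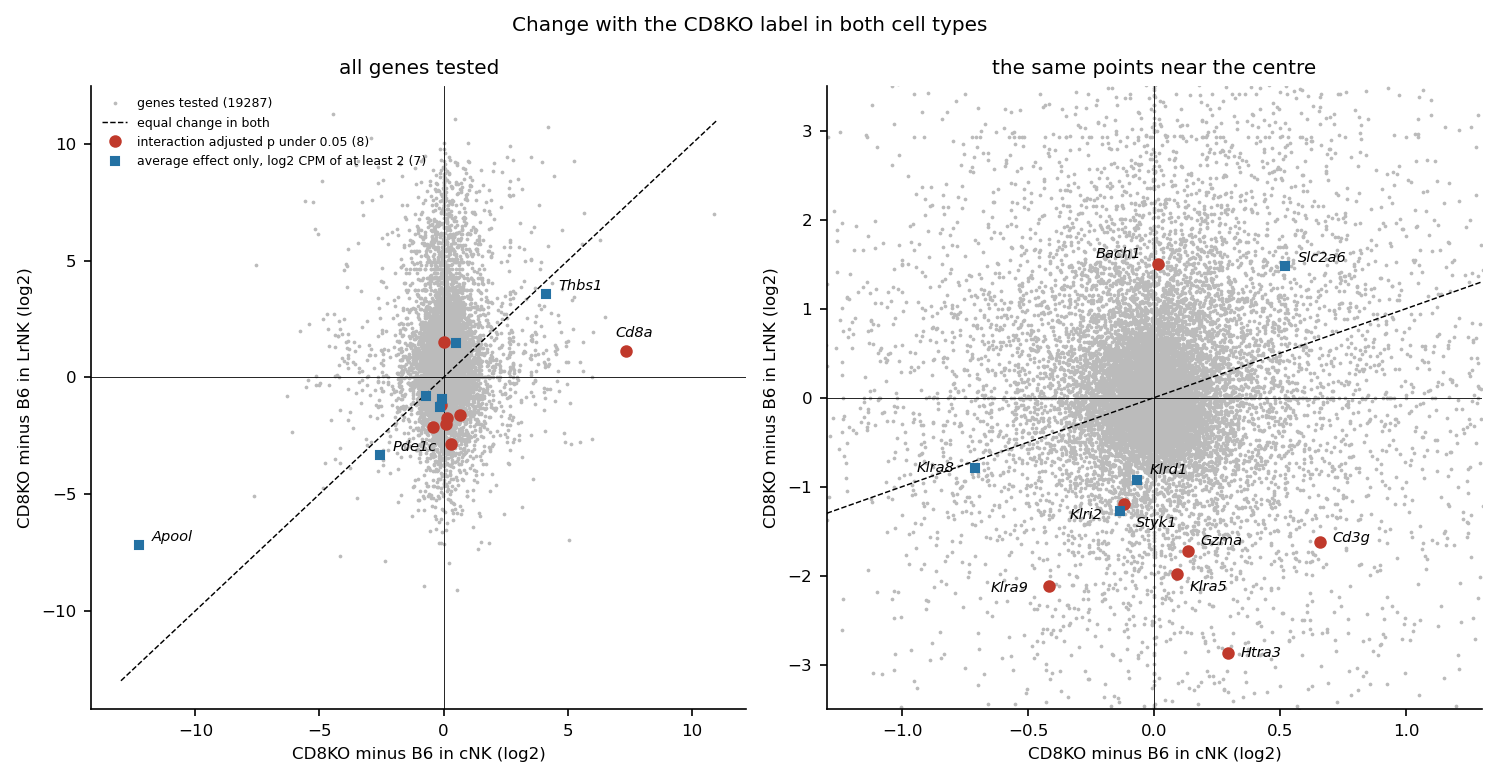
Log2 change from B6 to CD8KO in cNK (x axis) and LrNK (y axis) for 19287 genes, all of them on the left and the centre enlarged on the right. Red points are the 8 genes called in the interaction and blue squares the 7 well-expressed genes called for the average effect only. Genes on the dashed line changed alike, and 7 of the 8 red points lie below it, Bach1 alone above.

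Bach1, a transcriptional repressor of haem and redox genes, was the only positive call. It was at 61.2, 62.9 and 63.8 CPM in LrNK B6 and at 178 and 175 CPM in LrNK CD8KO. The cNK levels were 52.4, 51.8 and 49.3 CPM in B6 and 47.7, 53.1 and 54.2 CPM in CD8KO. The LrNK CD8KO samples stood alone, and the other 3 groups were close to each other. It rose by 1.50 ± 0.10 in LrNK (log2, edgeR adjusted p = 0.000289), the cNK change was 0.01 ± 0.09, and the interaction was 1.48 ± 0.14 (adjusted p = 0.0031). It was called in 19 of 20 alternatives, with an adjusted p = 0.0565 under limma voom. The gene lies at chr16:87698945-87733346 on the plus strand.

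The next positive genes by p did not pass. Hs6st1, a heparan sulphate sulphotransferase, was at 18 to 22.7 CPM in LrNK B6 and 53 and 56.1 CPM in LrNK CD8KO, and at 19.3 to 24.2 CPM in all cNK samples (interaction 1.54 ± 0.21, edgeR adjusted p = 0.0535). Dgkh, a diacylglycerol kinase, gave 1.70 ± 0.26 (adjusted p = 0.0821), and the fibronectin receptor chain Itga5 gave 1.05 ± 0.17 (adjusted p = 0.108). All 3 rose within LrNK, and no cNK change passed. Kit, the stem cell factor receptor, rose in LrNK from 18.6 to 24 CPM up to 46.4 and 40.7 CPM, and its interaction was 0.98 ± 0.18 (adjusted p = 0.167). Of 30 transcription factor genes 1 was called positive, Bach1, and the median was 0.10, which became -0.18 without LrNK CD8KO sample 2 and 0.38 without LrNK CD8KO sample 1.

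The average of the LrNK and cNK changes was called for 14 genes (0.0726%), 5 higher (0.0259%) and 9 lower (0.0467%), with 8.46% at an unadjusted p under 0.05. These include Bach1, Klra5 and Gzma, whose estimates came mostly from LrNK, and in the joint fit no cNK change other than that of Cd8a passed. The estimates had the same direction in both cell types in many of them, among these Cd8a, Klra9, Klri2, Klra8, Klrd1 and Styk1. A further 4 with the same direction, Thbs1, Pde1c, Apool and Slc2a6, are described here. Thbs1, the matricellular protein thrombospondin-1, was at 5.36, 8.94 and 9.62 CPM in LrNK B6 and 79.8 and 111 CPM in LrNK CD8KO. In cNK it had 1 count over the B6 samples and 21 over the CD8KO samples, a 24.6-fold ratio with a 95% counting interval of 3.95 to 1016, which covers counting error only. The log2 changes were 3.58 ± 0.32 in LrNK and 4.13 ± 0.73 in cNK, and the interaction was -0.55 ± 0.61. Pde1c, a cyclic nucleotide phosphodiesterase, was at 5.86 to 11.3 CPM in LrNK B6 and 1.25 and 0.65 CPM in LrNK CD8KO, and at 7.08 to 8.29 CPM in cNK B6 and 0.974 to 1.45 CPM in cNK CD8KO. Like 0.581% of all genes it was lower in both cell types without overlap, and the interaction was -0.78 ± 0.62. Apool, an X-linked gene for a mitochondrial cristae protein, was at 7.49 to 12.4 CPM in LrNK B6 and 0.171 and 0 CPM in LrNK CD8KO. In cNK it was at 9.79 to 12 CPM in B6 and without a count in CD8KO, which is at least 599.8-fold lower when 3 counts over the group are taken as the floor. The glucose transporter gene Slc2a6 had an average effect of 1.00 and an interaction of 0.96 ± 0.27. For all 4 the edgeR adjusted p of the interaction was between 0.333 and 0.996, which does not show that the changes were equal.

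For the pathway named by the study, no interaction was called in the main fit. Cd27 was at 107, 109 and 79.5 CPM in LrNK B6, 71.1 and 106 CPM in LrNK CD8KO, 121 to 142 CPM in cNK B6 and 129 to 153 CPM in cNK CD8KO. The groups overlapped in both cell types, and the interaction was -0.24 ± 0.26 (edgeR adjusted p = 0.959). Its ligand Cd70 had too few counts to be tested, with 18 counts in 1 LrNK CD8KO sample and 7 or fewer in each other sample. Of 25 CD27 and TNF receptor family genes tested, none was called by voom or the main edgeR fit (5 at an unadjusted p under 0.05). DESeq2, and edgeR without LrNK B6 sample 2, each called 1 positive and 1 negative. The list's median of 0.12 compares with 0.07 over all genes. It was -0.07 without LrNK CD8KO sample 2 and 0.24 without LrNK CD8KO sample 1. Ltb, which encodes lymphotoxin beta, had an interaction of -0.89 ± 0.23 (adjusted p = 0.297).

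**Figure D4:**
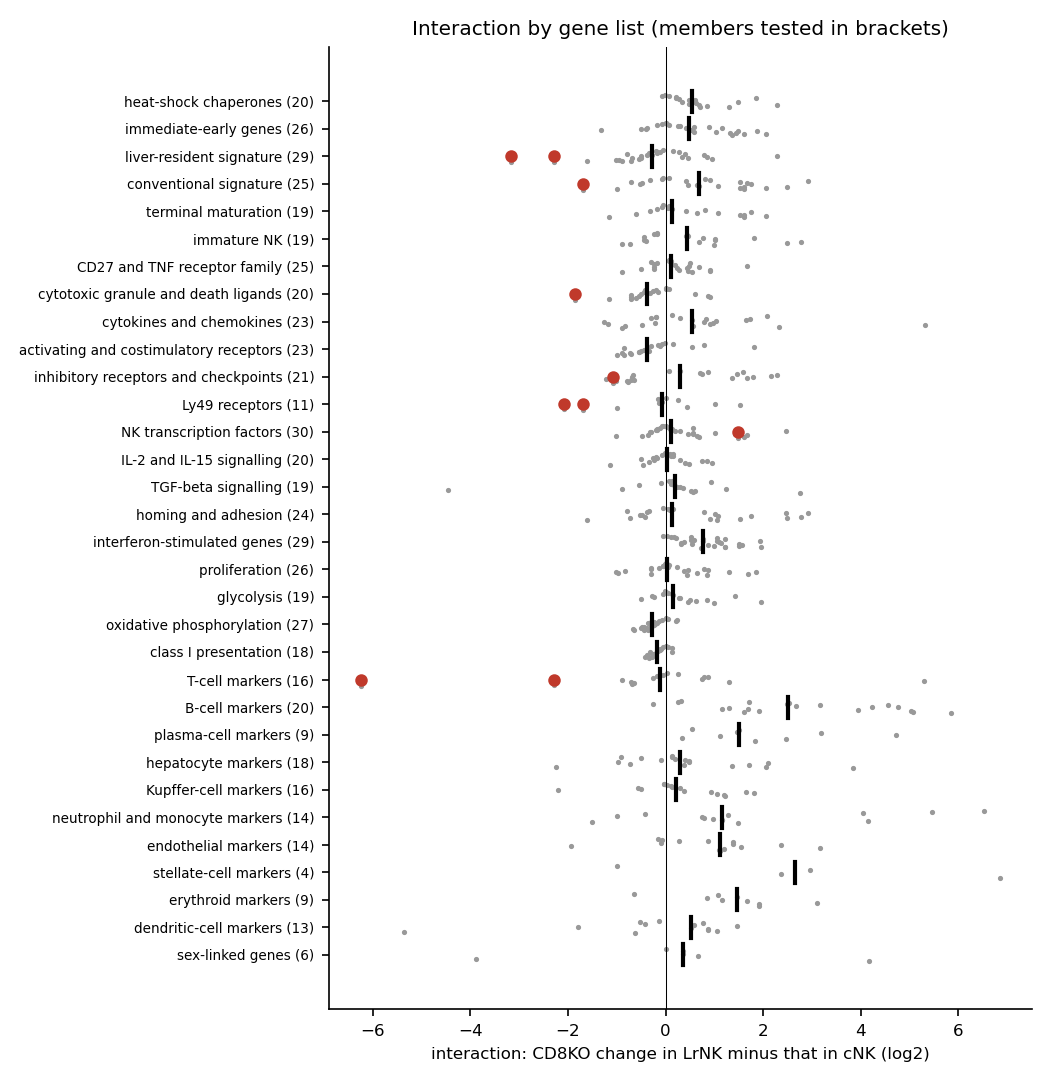
Interaction (log2) of every tested member of 32 gene lists, with the number tested in brackets. Grey points are genes, red points are genes called, and black bars are list medians. The B-cell list has a median of 2.52 and the stellate-cell list, with 4 genes tested, one of 2.66, with no gene called in either. Plasma-cell (1.51) and erythroid (1.46) medians also lie above 1.2, and the other medians lie between -0.4 and 1.2.

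Interferon-stimulated genes, the antiviral programme induced by interferons, lay mostly on the positive side. Of 29 tested, 28 were above 0 and 1 below, and the median was 0.76. None was called by voom or the main edgeR fit (7 at an unadjusted p under 0.05, 2 with DESeq2). Without LrNK B6 sample 2, edgeR called 2 positive. Ifi207, of the interferon-inducible p200 family, was at 28.4, 19.7 and 39.8 CPM in LrNK B6 and 122 and 90 CPM in LrNK CD8KO, and at 2.53 CPM or less in every cNK sample (interaction 1.96 ± 0.44, edgeR adjusted p = 0.229). Oasl1, of the oligoadenylate synthetase family, gave 1.21 ± 0.36 (adjusted p = 0.39), and Stat2, which carries interferon signals to the nucleus, gave 0.72 ± 0.16 (adjusted p = 0.229). The summed level was 1280 to 1810 CPM in LrNK B6 and 2940 and 2100 CPM in LrNK CD8KO, and 1190 to 1390 CPM in cNK. Without LrNK CD8KO sample 1 the list's median was 0.38.

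Heat-shock chaperones, which help proteins fold under stress, lay on the positive side; their median change was -0.15 in LrNK and -0.64 in cNK. Of 20 tested, 18 had an interaction above 0, the median was 0.55, and none was called by edgeR, voom or DESeq2 (5 at an unadjusted p under 0.05). Hspa8, a constitutive chaperone, was at 2740 to 3030 CPM in LrNK B6 and 3180 and 2610 CPM in LrNK CD8KO, against 2390, 2390 and 1640 CPM in cNK B6 and 1560, 1250 and 1230 CPM in cNK CD8KO. Its groups overlapped in LrNK and not in cNK, and its interaction was 0.70 ± 0.25 (adjusted p = 0.478). The inducible Hspa1a was at 225, 143 and 290 CPM in LrNK B6, 107 and 49.6 CPM in LrNK CD8KO, 2.95 to 11.5 CPM in cNK B6 and 0.277 to 1.18 CPM in cNK CD8KO, lower with CD8KO in both cell types, with an interaction of 2.28 ± 0.87 (adjusted p = 0.508). Hspa1a and its near copy Hspa1b may share reads.

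Respiratory chain and class I presentation genes showed small negative values. Of 27 oxidative phosphorylation genes, 5 were above 0 and 22 below, with a median of -0.27, and of 18 class I presentation genes 4 were above 0 and 14 below, with a median of -0.17 that was -0.29 without LrNK CD8KO sample 1. No member of either list was called by edgeR, voom or DESeq2. Their count at an unadjusted p under 0.05 was 1 and 0.

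Summed levels of B-cell, neutrophil and monocyte, and hepatocyte markers varied widely among LrNK samples and overlapped between the labels. Plasma-cell markers did not overlap in LrNK, where they summed to 172 to 367 CPM in B6 and 547 and 430 CPM in CD8KO. Their median interaction was 1.51, with 9 of 9 above 0 and none called in the main fit. B-cell markers had a median interaction of 2.52, with 19 of 20 above 0. None of the B-cell markers was called by voom or the main edgeR fit (5 at an unadjusted p under 0.05, 1 with DESeq2). Their summed level was 2380, 1080 and 4140 CPM in LrNK B6, 4330 and 3790 CPM in LrNK CD8KO, and 235 to 295 CPM in cNK. Without LrNK CD8KO sample 2 the list's median interaction was 0.43. Without LrNK B6 sample 2, edgeR called 4 of its members positive. Neutrophil and monocyte markers had a median of 1.16 (0.74 without LrNK B6 sample 2) with 11 of 14 above 0, and their summed level was 1120 to 4370 CPM in LrNK B6 and 9070 and 2950 CPM in LrNK CD8KO. The neutrophil gene Ly6g was at 0.12 CPM or less in every sample. Hepatocyte markers summed to 611 to 1690 CPM in LrNK B6, 2630 and 1370 CPM in LrNK CD8KO and 177 CPM or less in cNK. The immediate-early genes, induced within minutes by cell handling or stimulation, summed to 13000, 51300 and 27900 CPM in LrNK B6 and 16600 and 47800 CPM in LrNK CD8KO, with no separation by label. The part of these cells and of handling in the results above was not tested.

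**Figure D5:**
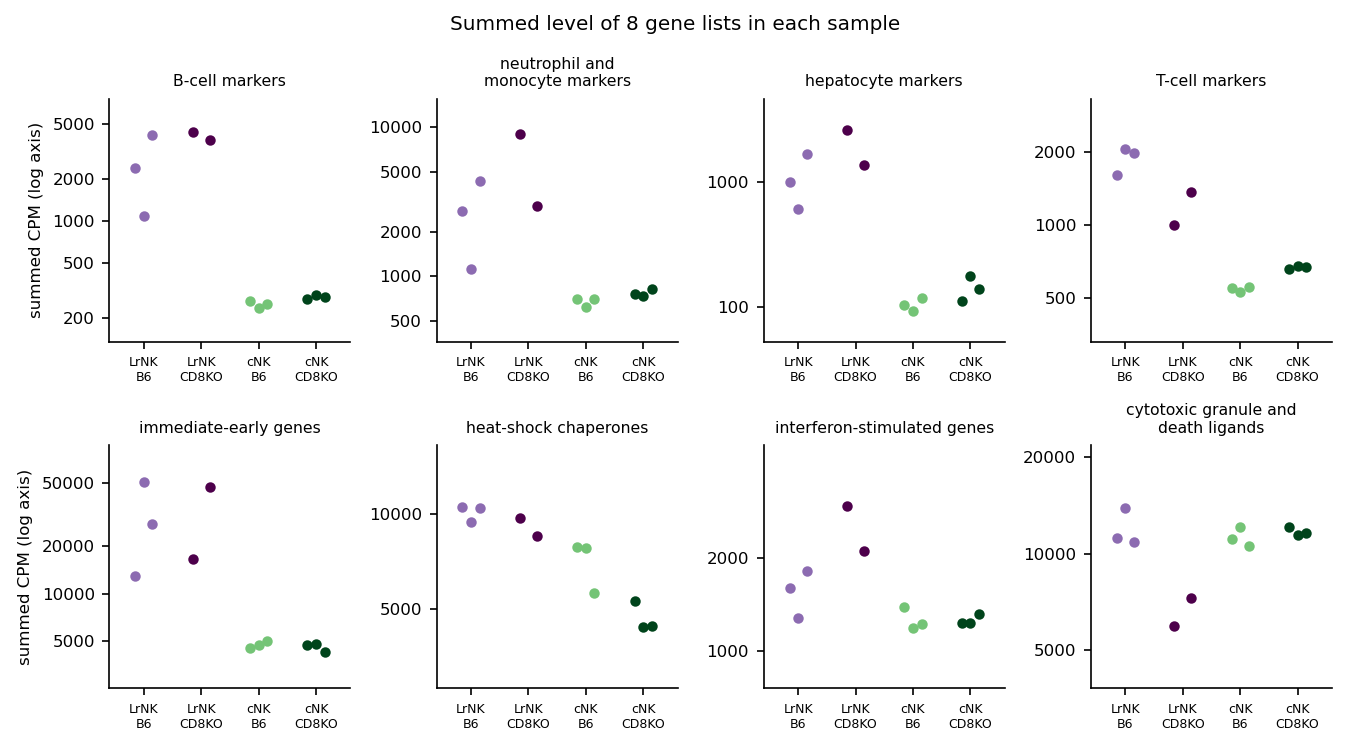
Summed CPM (log axis) of 8 gene lists in each of 11 samples, grouped as LrNK B6, LrNK CD8KO, cNK B6 and cNK CD8KO. The cytotoxic sum, in which Gzma and Gzmb weigh heavily, is lower in both LrNK CD8KO samples than in all other samples. B-cell, neutrophil and monocyte and immediate-early sums spread widely within LrNK B6.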

How the data were processed

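Gene counts, as the authors deposited them, were read for 13 libraries prepared with an Illumina TruSeq kit from sorted NK cells, per the labels. Alignment was with HISAT2 2.1.0 to GRCm38, per the submitters' processing notes. How reads were assigned to genes, with which annotation and whether by strand, is not given in the sources used here, so a gene and an overlapping or antisense partner cannot be separated. Even numbers made up 49.5% to 65.2% of the counts from 1 to 20 in each library, and nothing was done about this. Symbols and gene coordinates come from GENCODE M21 (54495 identifiers matched, 37 not), and promoter windows from RefSeq (GRCm38.p6), where 7 of the 8 called genes had an entry.

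Genes were tested with edgeR 4.0.16 (R 4.3.3): TMM scaling, filterByExpr (min.count of 10, min.total.count of 15), 1 mean per group over 11 samples (7 residual degrees of freedom), the quasi-likelihood test, and Benjamini-Hochberg adjustment over 19287 genes, with calls at an adjusted p under 0.05. Both agreeing LrNK pairs were summed first, after a chi-square comparison over genes with at least 12 counts. The 4 comparisons were the interaction, the CD8KO change in each cell type, and their average. All groups share one estimate of the spread. CPM values are TMM-scaled, errors on log2 values are standard errors, and ratios against few counts cover counting error only. Alternatives were other scalings, DESeq2 1.42.0, limma voom (limma 3.58.1), no filter, a replicate block, 13 libraries apart, fewer samples, LrNK samples with fewer or more than 16000 detected genes, and 2 groups only.

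Named genes are up to 12 called genes in each direction whose average log2 CPM is 2 or more, filled to 5 with uncalled genes of the smallest p; the 5 most positive and negative average effects; up to 3 genes of each of 32 lists by p; and a set of marker genes, with predicted genes, pseudogenes and receptor segments left out of the first 2 sets. Not every gene the rule allows is printed. The comparison, lists and naming rule were chosen with earlier results of these data known. Lists are described by counts and medians, with no test.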

Additional observations from a re-analysis of the deposited data

Results flagged for a closer look

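The CD8KO change differed between LrNK and cNK by a test of the difference itself (edgeR quasi-likelihood test, adjusted p under 0.05) for 8 genes. The log2 interaction was -6.25 for Cd8a, -3.16 for Htra3, -2.28 for Cd3g, -2.08 for Klra5, -1.86 for Gzma, -1.69 for Klra9, -1.08 for Klri2 and 1.48 for Bach1. Cd8a was higher with CD8KO in both cell types, and Cd3g was lower in LrNK and higher in cNK in every sample. For the other 6 the CD8KO samples were separate from the B6 samples in LrNK, and for Klra9 and Klri2 also in cNK, lower in both. Of all genes, 16.8% did not overlap in LrNK and 16.5% in cNK, and 0.581% were lower in both without overlap.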

How the results depend on the processing

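All 8 called genes kept their sign in 20 of 20 alternatives; Cd8a, Cd3g and Klra5 were called in 20, Klra9 and Bach1 in 19, Gzma in 12, Htra3 in 11 and Klri2 in 10. Counts of calls moved, and the cause was not tested. They are given as higher and lower. For the interaction, main 1 and 7: DESeq2 208 and 129, limma voom 0 and 3, 13 libraries apart 40 and 28, LrNK samples with few detected genes 1272 and 696 and with many 1904 and 962, library totals 2 higher, no filter 5 higher, single samples left out 1 to 569 and 4 to 155. For LrNK, main 104 and 34: DESeq2 770 and 376, voom 3 and 3, libraries apart 512 and 316, few detected genes 1789 and 977, many 2390 and 1245, library totals 55 higher, no filter 184 higher, LrNK groups alone 0 and 0, single samples left out 5 to 1105 and 8 to 420. For cNK, main 1 and 0: DESeq2 9 and 11, voom 67 and 82, libraries apart 1 lower, few detected genes 2 and 1, many 70 and 95, no filter 2 and 3, cNK groups alone 83 and 135, single samples left out 1 to 2 and 0 to 1. For the average, main 5 and 9: DESeq2 282 and 100, voom 3 and 3, libraries apart 61 and 34, few detected genes 1264 and 616, many 1869 and 931, no filter 23 and 17, single samples left out 3 to 641 and 1 to 121.

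The replicate block gave 1 and 5 calls for the interaction (without Htra3 and Klri2), 11 and 10 for LrNK, 1 and 1 for cNK and 3 and 5 for the average. The numbers were not taken to pair the samples in the main fit. Over 10338 genes, same-numbered samples correlated at -0.018, -0.045 and 0.131 in cNK and at -0.074 to 0.071 across cell types. In LrNK both same-numbered pairs deviated together, at 0.329 and 0.521. Whether LrNK samples of the same number share a batch was not tested.

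Among the genes named in the text, interactions that did not pass and changed sign were Apool (-0.024 with many detected genes), Thbs1 (0.033 with voom), Klra8 (0.044 with few detected genes, and -0.23 to 0.045 without single samples), Cd8b1 (-1.85 with few detected genes, and -1.84 to 6.31 without single samples) and Klrg1 (-0.067 with voom, -0.26 with the replicate block, -1.42 with few and -0.0027 with many detected genes, and -2.33 to 0.97 without single samples). Without single samples Cd27 ranged from -0.60 to 0.027, Ifng from -1.08 to 0.38 and Tbx21 from -0.97 to 0.46. The median interaction over all genes was 0.07, and 0.18 with voom, 0.15 without filter, 0.22 without LrNK B6 sample 2 and -0.22 without LrNK CD8KO sample 2. Limits: the LrNK CD8KO group has 2 samples, leaving out 1 assumes that the lone sample varies like other groups, the LrNK samples with few detected genes are 2 against 1 and those with many 1 against 1, with a spread taken mostly or only from cNK, and the spread of LrNK is far above that of cNK.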

Other observations

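Genes around the NK receptor cluster leaned the same way as the 3 called receptors. The window, within 1 Mb of the stretch from Klri2 to Klra9, was chosen after the values were seen. It held 54 tested genes, the 3 called receptors among them. Of these 54, 37 (68.5%) had an interaction below 0, and the median was -0.44. Over all genes 45.5% were below 0, with a median of 0.07, and over the 1079 tested genes of chromosome 6 it was 46.2% and 0.06. Klri2 begins 58.3 Mb from the end of Cd8a on the same chromosome. Its genes lay lower in LrNK (median -0.48) than in cNK (median -0.07), and many are NK receptor genes that share sequence and expression, so they are not independent of each other.

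Among 19 glycolysis genes 13 were above 0, with a median of 0.15 (0.08 without LrNK B6 sample 1 and 0.32 without LrNK B6 sample 3). None was called by voom or the main edgeR fit (4 at an unadjusted p under 0.05, 2 with DESeq2). Without LrNK B6 sample 2, edgeR called 1 positive. Hk2, which commits glucose to the cell, was at 28.9, 10.9 and 30.1 CPM in LrNK B6 and 83.8 and 87.4 CPM in LrNK CD8KO, and at 4.48 CPM or less in every cNK sample. Its interaction was 1.96 ± 0.57 (edgeR adjusted p = 0.363). Pfkfb3, which makes an activator of phosphofructokinase, was at 33.3 to 46.9 CPM in LrNK B6, 67.2 and 81.4 CPM in LrNK CD8KO and 47 to 50 CPM in all cNK samples, with an interaction of 1.00 ± 0.21 (adjusted p = 0.223). The residency chemokine receptor Cxcr6 was at 350, 215 and 233 CPM in LrNK B6 and 208 and 124 CPM in LrNK CD8KO. It was near 4 CPM or below in cNK, and its interaction was -0.39 ± 0.36 (adjusted p = 0.922). Tgfbr3, a coreceptor for TGF-beta, was at 1.36 to 2.74 CPM in LrNK B6, 17.3 and 6.67 CPM in LrNK CD8KO and 2.03 to 3.05 CPM in cNK (interaction 2.75 ± 0.70, adjusted p = 0.285).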
